A study of Mus musculus with 14 samples.

Results

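BAFF and APRIL are TNF family cytokines that keep B cells and plasma cells alive. The genes described here are the 5 of their ligand and receptor system, taken by symbol from the 32285 genes counted: the receptors Tnfrsf13c (BAFF receptor), Tnfrsf13b (TACI) and Tnfrsf17 (BCMA), and the ligands Tnfsf13b (BAFF) and Tnfsf13 (APRIL). BAFF binds all 3 receptors, whereas APRIL binds TACI and BCMA and also attaches to heparan sulfate proteoglycans such as syndecans. The BAFF receptor signals mainly through the noncanonical NF-κB route, in which TRAF3 loss lets the kinase NIK (Map3k14) drive processing of p100 (Nfkb2). TACI is a receptor of activated B cells and plasma cells, and BCMA supports long-lived plasma cells. In lymphoid tissue BAFF comes largely from stromal and myeloid cells and APRIL largely from myeloid cells.

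The samples were white nodules of 7 mice with Eif3e fl/fl Cγ1Cre, in which Cre is driven from the Ig γ1 locus and deletes Eif3e, a gene for a translation initiation subunit, in activated B cells. The mice of nodules 29, 31, 32 and 34 also carried the Rosa26-YFP reporter. The paper reports no YFP and normal eIF3e protein in the B and CD4+ T cells of tumors of such mice, primary or secondary. A single-cell RNA library and a library of rearranged receptors were made from each nodule, the latter for the B cell receptor (BCR) from 5 mice or the T cell receptor (TCR) from 2 mice. The BCR nodules were from mouse 27 (liver, 12 months), mouse 29 (lung, 12 months), mouse 31 (spleen, 13 months), mouse 33 (thymus, 16 months) and mouse 34 (lung and thymus, 9 months), and the TCR nodules from mouse 30 (liver, 14 months) and mouse 32 (spleen, 12 months). The nodule of mouse 27 was a secondary tumor that had grown in a Rag2-/- recipient, and no control nodule entered. Cells of mouse 27 and of its recipient were not told apart in that nodule. With 1 nodule per mouse, organ, age and mouse cannot be told apart.

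Of 77442 deposited cells 75503 were kept, at a median of 1364 to 5319 unique molecular identifiers (UMIs) per cell and 19264039 to 123456962 UMIs per library. Any 2 libraries shared 78 to 278 cell barcodes. Cells were put into classes from fixed markers, and "B-like" or "fibroblast-like" means that a cluster held those markers. The 8 B cell markers were all detected in the B-like cells of every nodule, and the 7 fibroblast markers in the fibroblast-like cells of the 4 nodules that held 20 or more of them. Clone cells are those with the heavy (or beta) chain that was commonest in their nodule or with the light (or alpha) chain most often found beside it, and other BCR- or TCR-called cells are those with neither. T-like cells outside the clone also include cells without a receptor call. Levels are CPM, the UMIs of a gene in the pooled cells of a population scaled to the same total of UMIs in each, with exact Poisson 95% intervals in brackets, which cover counting error only.

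In each nodule the receiver cells of interest were the expanded clone, for which the commonest nucleotide sequence of the CDR3 is shown, the junction of the heavy or beta chain that tells 1 clone from another. The sequences were read from the deposited V(D)J contigs, run 5′ to 3′, and have no capitals because no base in them is singled out.

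B cell clone of mouse 27, IGHV1-75 with IGHJ1: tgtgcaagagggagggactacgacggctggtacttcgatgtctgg
B cell clone of mouse 29, IGHV1-85 with IGHJ3: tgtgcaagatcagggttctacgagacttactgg
B cell clone of mouse 31, IGHV1-18 with IGHJ4: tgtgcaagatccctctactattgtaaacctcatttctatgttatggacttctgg
B cell clone of mouse 33, IGHV9-3 with IGHJ3: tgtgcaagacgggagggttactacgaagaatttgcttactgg
B cell clone of mouse 34, IGHV9-1 with IGHJ2: tgtactagagaggatgactattgg
T cell clone of mouse 30, TRBV1 with TRBJ2-1: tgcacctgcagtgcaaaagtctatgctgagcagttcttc
T cell clone of mouse 32, TRBV26 with TRBJ2-5: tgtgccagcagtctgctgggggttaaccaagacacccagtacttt

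The 7 junctions differed from each other in V gene and sequence. The clone pools used below held 1780, 301, 3973, 1082 and 1389 cells for BCR mice 27, 29, 31, 33 and 34, and 2092 and 4473 cells for TCR mice 30 and 32. The printed junction itself was read in 44.0%, 72.4%, 82.4%, 25.0% and 72.7% of the B cell pools and in 93.2% and 97.9% of the T cell pools. The other cells were taken by the light or alpha chain, and most of these had no heavy or beta chain read in mice 27, 29, 31 and 33 (627, 82, 541 and 672 cells) and in both T cell pools. Another heavy chain was read in 370, 1, 159, 139 and 234 cells of mice 27, 29, 31, 33 and 34, with the same V gene in 370, 1, 156, 138 and 204 of them. In the cells with the printed junction alone, Tnfrsf13c stood at 439 CPM in mouse 33 and 577 in mouse 34, where the pools used below had 308 and 704, and Tnfrsf13b at 210 in mouse 33 where the pool had 159. In the other B cell clones both receptors were within 5% of the pool.

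Tnfrsf13c (ENSMUSG00000068105, GRCm38.p6 chr15:82221742-82224380, minus strand) codes for the receptor through which BAFF maintains mature B cells. Its level in the B cell clones of mice 27, 29, 31, 33 and 34 was 204 [198 to 211], 78.7 [69.8 to 88.4], 12.4 [11.4 to 13.4], 308 [299 to 316] and 704 [692 to 717] CPM. The intervals of no 2 B cell clones overlapped, and the clone of mouse 31 was the lowest and that of mouse 34 the highest. In the T cell clones the level was 0.751 [0.205 to 1.92] CPM in mouse 30 and 4.51 [3.63 to 5.54] in mouse 32, below every B cell clone. The T-like cells outside the clone had 1.12 to 16.1 CPM over the 7 nodules, the highest being in mouse 34, so their range overlapped that of the B cell clones only through the clone of mouse 31.

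The share of clone cells with at least 1 Tnfrsf13c UMI was 70.2%, 51.5%, 12.0%, 85.3% and 97.0% for mice 27, 29, 31, 33 and 34. Because the median depth of these cells ran from 9365 to 13755 UMIs, every cell was also thinned to 2000 UMIs, and the shares then were 30.3%, 15.3%, 2.25%, 40.8% and 65.7% in the same order. T-like cells outside the clone, taken here as the background and with a median depth of 1139 to 3466.5 UMIs in these 5 nodules, had thinned shares of 0.231% to 4.39%. In mouse 31 the thinned share was 2.25% in the clone and 1.007% in T-like cells, so the receptor was near the level that such cells showed.

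Other BCR-called B-like cells of the same nodule served as a reference for what B cells of a different receptor carried. They numbered 32, 41, 25 and 24 cells in mice 29, 31, 33 and 34, and their Tnfrsf13c level was 61.3 [31.7 to 107], 209 [140 to 301], 323 [254 to 407] and 272 [212 to 345] CPM. The clone stood at 0.0593 [0.0408 to 0.0892] times this level in mouse 31 and at 2.59 [2.04 to 3.33] times in mouse 34. In mouse 29 the ratio was 1.28 [0.723 to 2.51] and in mouse 33 it was 0.951 [0.755 to 1.22], and both intervals span equality. By these ratios, whose intervals cover counting error only, the clone was lower than other B cells of its nodule in mouse 31. It was higher in mouse 34 and not separable from them in mice 29 and 33. With the cells of the printed junction alone, a choice made after the data were seen, the ratio was 1.36 [1.07 to 1.74] in mouse 33 and 2.12 [1.67 to 2.73] in mouse 34. The other B cells of mouse 31 had a median depth of 2043 UMIs against 11198 in the clone. At 2000 UMIs per cell 36.4% of those deep enough held the transcript, against 2.25% of the clone. In mouse 34 the shares were 43.5% [23.2 to 65.5, exact binomial] of 23 such cells and 65.7% [63.1 to 68.2] of the clone, which overlapped.

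Tnfrsf13b (ENSMUSG00000010142, chr11:61126283-61153170, plus strand) codes for TACI, the receptor that BAFF and APRIL share on activated B cells. The B cell clones had 234 [227 to 241], 28.1 [22.9 to 34.1], 311 [306 to 316], 159 [153 to 165] and 115 [110 to 120] CPM, with mice 27, 29, 31, 33 and 34 in this order. The highest clone was that of mouse 31, which was the lowest for Tnfrsf13c, and the clone of mouse 29 was the lowest. Other BCR-called B-like cells of mice 29, 31, 33 and 34 had 81.8 [46.8 to 133], 93.8 [49.9 to 160], 146 [100.6 to 205] and 107 [70.2 to 155] CPM. Against them the clone was higher in mouse 31, by 3.31 [1.94 to 6.22] times. In mouse 29 the ratio was 0.343 [0.202 to 0.624], from 16 reference UMIs pooled over 32 cells. These intervals cover counting error only. Thinned as for Tnfrsf13c, 3 of 25 reference cells of mouse 29 held Tnfrsf13b, none of them with Tnfrsf13c. Of 300 thinned clone cells there, 17 held Tnfrsf13b only and 1 held both. So few reference cells cannot show that the clone of mouse 29 was lower. The ratios in mice 33 and 34 were 1.09 [0.771 to 1.58] and 1.08 [0.740 to 1.64], which span equality. With the printed junction alone the ratio in mouse 33 was 1.44 [1.016 to 2.10].

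The clones also differed in how both transcripts lay in single cells, counted at 2000 UMIs per cell. In mouse 34, 50.3% of clone cells held only Tnfrsf13c, 7.20% only Tnfrsf13b and 15.4% both. In mouse 31 the shares were 1.09%, 45.7% and 1.16%. The clones of mice 27 and 33 lay between these, with 12.4% and 11.1% of cells holding both. Cells holding both were about as frequent as the product of the separate shares, which was 14.9%, 1.05%, 10.8% and 10.6% for mice 34, 31, 27 and 33. In mouse 29, 0.333% held both, where the product was 0.920%.

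**Figure D1:**
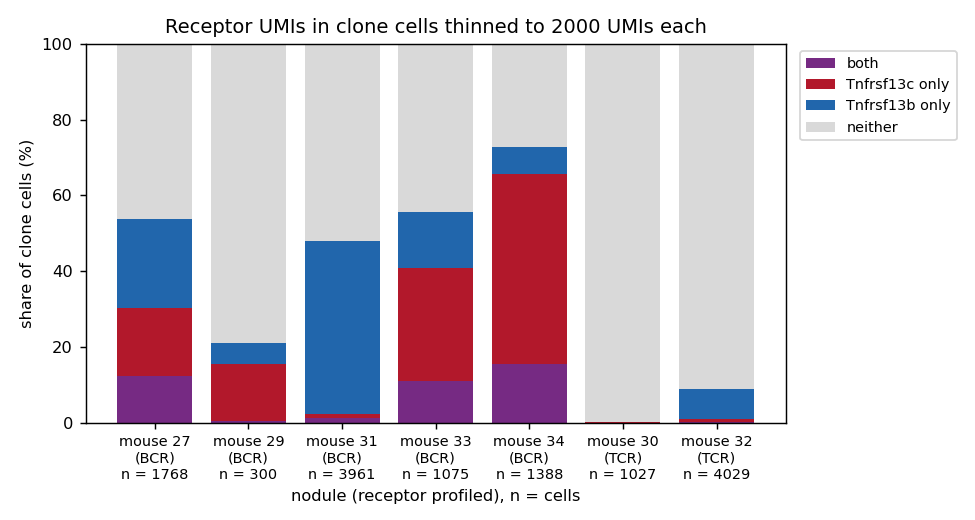
Percent of clone cells, each thinned to 2000 UMIs, that hold Tnfrsf13c only, Tnfrsf13b only, both or neither, 1 bar per nodule. Mouse 34 has 50.3% of cells with Tnfrsf13c only and mouse 31 has 45.7% with Tnfrsf13b only, whereas 99.8% of the T cell clone of mouse 30 hold neither.

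Tnfrsf17 (ENSMUSG00000022496, chr16:11313232-11320074, plus strand), for the plasma cell receptor BCMA, gave 38 UMIs in 35 of the 75503 cells. The B cell clones of mice 27, 29 and 31 had 2, 4 and 8 UMIs, or 0.110, 1.11 [0.303 to 2.85] and 0.165 [0.0711 to 0.325] CPM. It was not detected in the clones of mice 33 and 34, where 3 counts would have been 0.181 and 0.177 CPM, and in neither T cell clone. Nodule 29 held 18 of the 38 UMIs, 14 of them in B-like cells. Among the other BCR-called cells 2 UMIs were found in mouse 29 and 2 in mouse 33. BCMA was therefore at or near the detection limit of these libraries in every population.

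Tests over nodules were then made with edgeR's quasi-likelihood test on UMIs summed per mouse and population, with the mouse as a block and Benjamini-Hochberg adjustment over all genes tested. Between the B cell clones and T-like cells, 27.5% of 12154 genes passed, 12.2% being higher and 15.3% lower in the clone. Tnfrsf13c averaged 262 CPM in the clones and 7.69 in T-like cells, a log2 difference of 4.76 (SE 0.63, adjusted p = 0.0023), and was higher in 5 of 5 mice. Tnfrsf13b averaged 169 against 18.6 CPM, a log2 difference of 3.31 (SE 0.56, adjusted p = 0.0059), also in 5 of 5 mice. Tnfsf13b did not pass, at 6.25 against 6.93 CPM (log2 difference -0.42, SE 0.45), and Tnfrsf17 and Tnfsf13 were too low to be tested. The receptors that the clone carried beyond T-like cells were therefore the BAFF receptor and TACI, and no other member was called.

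Between the clones and the other BCR-called B-like cells of 4 nodules, 2 of 8975 genes passed (0.0223%), and no member was among them. The log2 difference was -0.51 (SE 0.71) for Tnfrsf13c and 0.05 (SE 0.50) for Tnfrsf13b. The directions differed from nodule to nodule, as the ratios above show, and without the nodule of mouse 31 the log2 differences were 0.44 and -0.48. A common shift of either receptor in the clones could not be shown with 24 to 41 reference cells per nodule.

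The T cell clone of mouse 32 carried Tnfrsf13b. Its level was 46.2 [43.3 to 49.3] CPM, against 6.96 [3.60 to 12.2] in the other TCR-called T-like cells of the nodule and 18.1 [15.2 to 21.3] in all T-like cells outside the clone. The last pool includes cells without a TCR call, and so may hold clone cells whose chains were not read. Clusters of 2684, 2204 and 1598 T-like cells, nearly all from mouse 32, had Trbv26, the V gene of its clone, among their leading genes. A cluster of 2675 cells, nearly all from mouse 30, was led by Trbv1, the V gene of the clone there. The ratio to the other TCR-called cells was 6.64 [3.79 to 12.9]. In mouse 30 the clone had 0.188 [0.00475 to 1.05] CPM from 1 UMI, against 6.25 [2.29 to 13.6] from 6 UMIs in the other TCR-called cells. The T cell clones of both nodules thus went opposite ways, in mouse 30 on these few UMIs. With 2 nodules edgeR called 0 of 11451 genes (969 at an unadjusted p under 0.05, and 202 by DESeq2), and the log2 difference of Tnfrsf13b was 0.66 (SE 1.82).

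In mouse 32 the transcripts of 2 of the 7 B cell markers reported here were raised with Tnfrsf13b in the clone. Pax5, for a transcription factor of B cell identity, was at 54.1 CPM in the clone and 2.32 in the other TCR-called cells, and Cd22, for a lectin that restrains BCR signaling, was at 64.2 and 5.80. The other 5 were at 0.0496 to 2.48 CPM in the clone, with Cd79a at 0.496 and Ms4a1 at 0.0496. At 2000 UMIs per cell 7.89% of the clone cells held a Tnfrsf13b UMI and 0.968% a Tnfrsf13c UMI.

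T-like cells outside the clone of the BCR nodules had 6.86, 10.7, 53.5, 6.07 and 15.8 CPM of Tnfrsf13b in mice 27, 29, 31, 33 and 34. Mouse 31, whose clone was the highest, stood apart from the rest. To set this beside RNA that may have come from the clone, each level was taken as a percent of the clone's, and so were those of the 8 B cell markers. In mouse 31 Tnfrsf13b stood at 17.2% and the markers at 6.70% to 22.9%, so it lay inside their range. In mouse 29 it stood at 38.1% and the markers at 0.694% to 4.12%, so it lay above all 8. In mice 27, 33 and 34 it stood at 2.94%, 3.83% and 13.7%, inside the marker ranges of 0% to 10.2%, 2.64% to 26.6% and 1.80% to 21.2%. The part of clone RNA in these levels was not tested further.

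Within the T-like cells Tnfrsf13b differed between clusters, which were chosen after their values were seen and carry no test. A cluster led by Ikzf2, Tnfsf8, Penk and Il7r had 18.7, 13.5, 95.4, 10.02 and 41.0 CPM in mice 29, 30, 31, 32 and 34. A cluster led by the cytotoxic genes Ccl5, Nkg7 and Gzmb had 6.86, 0, 7.94, 2.64 and 3.27 CPM in the same nodules. The first cluster was the higher in all 5 nodules that held both. Its intervals were wide where cells were few, as with 38.4 to 197 CPM from 41 cells of mouse 31.

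Receptor RNA also appeared in nodule cells that are not lymphocytes, and it was set beside the 8 B cell markers in 18 such populations of the BCR nodules. As a percent of the clone's level, Tnfrsf13c lay inside the range of the markers in 16 of 18 and below all of them in 2. Tnfrsf13b lay inside it in 15 and above all of them in 3, and it was above the marker median in 15 of 18, where Tnfrsf13c was above it in 5. Some ranges were very wide, as with 1.05% to 1308% in phagocytes of mouse 27 and 0% to 973% in neutrophil-like cells of mouse 31. Tnfrsf13c was itself at 0 in the neutrophil-like and endothelial-like cells of mice 27 and 31, which counted as inside. A place inside the range therefore does not show that a receptor followed the markers. In mouse 34 Tnfrsf13c was at 528 CPM in endothelial-like, 381 in fibroblast-like and 176 in neutrophil-like cells, and the markers had medians of 70.5%, 55.7% and 35.4% of their clone levels, none being at 0. In the phagocytes of mouse 29 Tnfrsf13c was at 0.458% of the clone, below all 8 markers, and Tnfrsf13b was at 31.5%, where the marker median was 1.72%. In the neutrophil-like cells of mouse 29 Tnfrsf13b was at 22.3%, above the highest marker at 12.3%. In mouse 27 Tnfrsf13c was at 0 in 25 neutrophil-like cells, where the marker median was 18.1%. Monocyte-like cells of mouse 32, a TCR nodule, had 38.3 CPM of Tnfrsf13b, close to the 46.2 of its T cell clone. The share of receptor RNA that was made by the cells themselves was not tested.

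Signaling genes of the receptors were next read in the clones. Nfkb2, for the p100 precursor of the noncanonical NF-κB route, had 12.2, 13.3, 10.1 and 30.9 CPM in mice 27, 29, 31 and 33, and 835 [821 to 849] in mouse 34. The clone of mouse 34, which also had the most Tnfrsf13c, stood far above the others. The other BCR-called B-like cells of mouse 34 had 43.4 [21.7 to 77.7] CPM, and the clone was 19.2 [10.7 to 38.5] times higher. In mice 29, 31 and 33 the ratio was 0.522 [0.209 to 1.68], 0.3497 [0.136 to 1.29] and 0.776 [0.406 to 1.71], all spanning equality. Relb, for the usual partner of the processed protein, was level over the clones at 30.4 to 50.1 CPM, with 46.5 in mouse 34. Map3k14, for NIK, was highest in mouse 33 at 113 CPM and at 14.8 in mouse 34, and Traf3, which holds NIK down, was at 61.2 to 151 CPM. Bcl2, a survival gene downstream of this route, was at 58.9, 31.7, 77.1, 289 and 22.1 CPM in mice 27, 29, 31, 33 and 34, so the clone with the most Nfkb2 had the least Bcl2. In the cells with the printed junction alone Map3k14 in mouse 33 was at 57.4 CPM, next to 53.8 in mouse 31, and in mouse 34 Nfkb2 was at 1072 and Bcl2 at 10.1.

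The 31 genes of the pathway lists outside the members were tested in the same fits. Against T-like cells, 1 of 28 tested genes was higher in the B cell clones and 5 were lower, where 12.2% and 15.3% of all genes were, with a median log2 difference of -0.36 where that of all genes was 0.04. Cd40, the receptor for T cell help, was higher (log2 difference 3.41), and Cd40lg, its ligand made by helper T cells, was lower (-6.79). Of the 12 receptor signaling genes Traf1 (-2.24), Birc2 (-1.49) and Relb (-1.38) were lower and none was higher, and of the 4 survival and death genes Bcl2l1 (-1.08) was lower. Neither the 8 genes for cleavage of ligands and receptors nor the 1 testable syndecan passed. Against the other BCR-called B-like cells 0 of 25 tested pathway genes passed, and in the T cell clones 0 of 27.

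The ligands were traced to their source cells. Tnfsf13 (ENSMUSG00000089669, chr11:69682577-69685554, minus strand), for APRIL, lies inside the read-through gene Tnfsfm13 that joins it to Tnfsf12, and reads of the read-through RNA cannot be told apart from it. Macrophage-like cells of mice 27, 29, 31, 33 and 34 had 64.4 [46.9 to 86.1], 84.0 [75.4 to 93.4], 77.1 [64.5 to 91.5], 57.9 [50.6 to 65.98] and 79.0 [53.7 to 112] CPM. The mean was 72.5 ± 10.9 CPM (SD, n = 5). The clones had 0.0603 to 0.794 CPM over the 7 nodules, below every macrophage-like pool.

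Next in order came monocyte-like cells at 53.9 ± 26.8 CPM (SD, n = 6), which overlapped the macrophage-like range and were lower in 3 of 4 shared mice (exact sign-flip test, two-sided, p = 0.375, where 4 mice cannot go below 0.125). Epithelial-like cells followed, with 32.5 CPM in the lung nodule of mouse 29 and 0 to 9.90 in the other 2 nodules that held 20 or more. Neutrophil-like cells had 43.4 and 19.8 CPM in mice 32 and 30, 2.33 in mouse 29 and 0 in mice 27, 31 and 34, where 25, 38 and 41 cells were measured. Fibroblast-like cells had 4.38 to 23.0 CPM. Among nodules with 20 or more neutrophil-like cells the high neutrophil-like values were those of both TCR nodules. The 9 neutrophil-like cells of BCR mouse 33 held 7 UMIs, 6 of them in 1 cell, or 112 [45.0 to 231] CPM. Erythroid-like cells, which were many only in mouse 32, had 7.72 CPM there.

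Those neutrophil-like cells parted into clusters by maturity genes. In mouse 30 the cluster led by the granule genes Camp, Ngp and Elane, which immature neutrophils make, had 31.1 CPM of Tnfsf13 and 37.2 of Tnfsf13b, and the cluster led by Cxcl2 and Retnlg had 1.13 and 9.01. In mouse 32 the granule gene cluster, which held 1227 of the 1251 neutrophil-like cells, had 43.6 and 8.90 CPM. In mouse 29, where it held 209 cells, it had 4.97 and 5.96 CPM. The cluster was thus high for APRIL in the TCR nodules and not in mouse 29, and no other BCR nodule held enough of these cells.

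Phagocytes (macrophage-like, monocyte-like and dendritic-like cells together) were compared with T-like cells in 7 nodules, and 42.3% of 10267 genes passed, 21.9% being higher and 20.3% lower in phagocytes. Tnfsf13 averaged 59.9 against 0.481 CPM, a log2 difference of 6.96 (SE 0.48, edgeR adjusted p = 1.6e-06), and was higher in 7 of 7 mice. Tnfsf13b did not pass, at 10.2 against 6.28 CPM (log2 difference 0.60, SE 0.45, edgeR adjusted p = 0.31). Tnfrsf13b (0.93, edgeR adjusted p = 0.11) and Tnfrsf13c (-0.43) did not pass either, although Tnfrsf13b passed at 1.31 without mouse 31. Of 29 tested pathway genes 11 were higher and 4 lower. Sdc4, a syndecan that can hold APRIL, rose by 4.33, Tnfsf12, the neighbor of the APRIL gene, by 4.02 and Cd40 by 3.81, and Cd40lg fell by 6.12 on the log2 scale. Of the 8 cleavage genes 5 were higher, among them Furin at 1.60, the protease that frees both ligands, and Adam17 at 1.82.

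Neutrophil-like cells were lower than phagocytes for Tnfsf13 in 6 of 6 mice, in a comparison in which 17% of 8270 genes passed, 7.28% being higher and 9.7% lower. The averages were 10.9 and 60.95 CPM, and the log2 difference was -2.18 (SE 0.71, edgeR adjusted p = 0.046). This call was lost with finer clusters and without any one of mice 27, 29, 31 and 34, with a log2 difference of -1.26 (edgeR adjusted p = 0.23) without mouse 29. In both TCR nodules the intervals overlapped. The levels were 19.8 [14.5 to 26.3] and 20.1 [11.5 to 32.6] CPM in mouse 30, and 43.4 [40.4 to 46.5] and 51.9 [42.2 to 63.3] in mouse 32. In mice 27, 31 and 34 the neutrophil-like level was 0 in 25 to 41 cells, with an upper limit of 68.3 CPM in mouse 27. Mouse 33, with 9 neutrophil-like cells too few to enter, went the other way at 112 [45.0 to 231] against 53.6 CPM. Tnfrsf13b did not differ beyond its error (0.03, SE 0.39). Of 27 tested pathway genes 2 were higher and 3 lower, led by Sdc4 (-4.90) and Cd40 (-3.97), with Bcl2l1 (1.61) and Birc3 (1.16) higher.

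Tnfsf13b (ENSMUSG00000031497, chr8:10006229-10036000, plus strand), for BAFF, had its highest levels in fibroblast-like cells. They numbered 21, 2886, 189 and 42 cells in mice 27, 29, 33 and 34, with 19.5 [5.31 to 49.9], 96.7 [91.8 to 102], 136 [116 to 157] and 39.4 [23.4 to 62.3] CPM. The mean was 72.8 ± 53.2 CPM (SD, n = 4), and the next classes in order were dendritic-like cells at 34.8 and 7.53 CPM in 2 nodules (7 and 2 UMIs) and macrophage-like cells at 14.3 ± 14.7 (SD, n = 5), whose ranges overlapped. The T-like cells of the same nodules had 7.71, 7.37, 7.08 and 7.14 CPM, below every fibroblast-like pool. After these levels were seen the fibroblast-like cells were compared with T-like cells, and 31.2% of 10791 genes passed, 16.6% being higher and 14.6% lower. Tnfsf13b was higher in 4 of 4 mice, with a log2 difference of 3.17 (SE 0.55, edgeR adjusted p = 0.0033), and Tnfsf13 in 4 of 4 mice, with 3.98 (SE 1.08, edgeR adjusted p = 0.025). Tnfsf13 averaged 9.29 against 0.596 CPM. Of the 4 fits that left out 1 mouse it could be tested in only 2, those without mouse 27 and without mouse 34. Its call was lost in both (edgeR adjusted p = 0.060 and 0.055). The fibroblast-like cells of mice 27 and 34 held 1 and 2 Tnfsf13 UMIs, and the T-like cells there 0. Tnfrsf13c, at 1.97 (SE 0.68, edgeR adjusted p = 0.061), did not pass, and Tnfrsf13b, at 0.74 (SE 0.85), did not either.

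The same cells carried the proteoglycans to which APRIL binds. Sdc2, Sdc4 and Sdc1 were higher than in T-like cells, by 6.59, 4.55 and 4.35 on the log2 scale, in 4 of 4 mice each. Of 31 tested pathway genes 6 were higher and 4 lower, where 16.6% and 14.6% of all genes were, so the share that passed was near that of all genes (31.2%), the largest others being Cd40lg (-5.44) and Tnfsf12 (4.75). Within the fibroblast-like cells of mouse 29, the cluster with Dcn and Mgp had 100.03 CPM of Tnfsf13b, and the cluster with the smooth muscle genes Myh11 and Acta2 had 19.98.

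Macrophage-like cells had 10.01 [4.02 to 20.6], 5.07 [3.14 to 7.75], 40.02 [31.1 to 50.7], 11.1 [8.01 to 14.9] and 5.10 [0.617 to 18.4] CPM of Tnfsf13b in mice 27, 29, 31, 33 and 34. Mouse 31 stood above the other 4, and its interval overlapped none of theirs. In mouse 33 a macrophage-like cluster led by C1q genes, Cxcl13 and Fcgr4 had 29.7 CPM of Tnfsf13b and 5.93 of Tnfsf13, and another led by Lyz2, Ccl8 and C1q genes had 4.38 and 73.5. Tnfsf13b was thus the higher ligand in the first of these clusters and Tnfsf13 in the second. The comparison was not planned and carries no test, and all 811 macrophage-like cells of mouse 33 held 43 Tnfsf13b UMIs. Other macrophage-like clusters of that nodule are not given here.

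Neutrophil-like cells of mice 30, 32 and 29 had 26.5, 8.91 and 6.46 CPM of Tnfsf13b, those of mouse 31 had 12.6 from 1 UMI, and those of mice 27 and 34 had 0. The clones of mice 27, 31 and 30 had 12.0 [10.47 to 13.7], 9.25 [8.41 to 10.2] and 8.63 [6.32 to 11.5] CPM, and the other 4 had 1.39 to 5.01. B-like cells (7.87 ± 7.85 CPM, SD, n = 7) and T-like cells (6.28 ± 2.06) could not be ordered, being higher in B-like cells in 3 of 7 mice (exact sign-flip test, two-sided, p = 0.67). In mouse 32, 6.96 [3.60 to 12.2] CPM was found in the other TCR-called cells and 1.39 [0.923 to 2.01] in the clone, a ratio of 0.1996 [0.0983 to 0.431]. Over both TCR nodules the log2 difference was -1.003 (SE 0.93) and did not pass.

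Which cells held most of a ligand's RNA depended on how many of them the nodule had. In the lung nodule of mouse 29 fibroblast-like cells held 83.7% of 1690 Tnfsf13b UMIs and 28.7% of all UMIs. In mouse 33 they held 35.1% of 504 Tnfsf13b UMIs with 1.81% of all UMIs, and in mouse 34 14.0% of 129 with 1.04%. Where fibroblast-like cells were few, as in mice 27 and 31, B-like cells held 94.3% and 82.2% of the Tnfsf13b UMIs, about their 92.4% and 87.5% of all UMIs. In mouse 30, T-like cells held 61.2% and neutrophil-like cells 34.4%. In mouse 32, erythroid-like cells, at 60.7% of all UMIs, held 50.6%, and neutrophil-like cells held 35.3%.

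For Tnfsf13 the myeloid cells (phagocytes and neutrophil-like cells) held 81.4%, 71.1%, 91.1%, 78.3% and 57.6% of the UMIs in BCR mice 27, 29, 31, 33 and 34, and 87.5% and 59.3% in TCR mice 30 and 32. In mouse 32 erythroid-like cells held another 39.0% of 1471 Tnfsf13 UMIs, below their 60.7% of all UMIs. The myeloid cells held 1.24% to 21.8% of all UMIs. The log2 ratio of the myeloid share of Tnfsf13 UMIs to the myeloid share of all UMIs was 3.64 ± 1.66 (SD, n = 7). It was above 0 in 7 of 7 mice (exact sign-flip test, two-sided, p = 0.015625, the smallest that 7 mice allow, adjusted over both ligands 0.03125). For Tnfsf13b the same log2 ratio was 0.35 ± 1.49 and above 0 in 5 of 7 mice (exact p = 0.5625). The myeloid share of APRIL RNA was thus above the myeloid share of all RNA in every nodule, and for BAFF this was not shown.

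**Figure D2:**
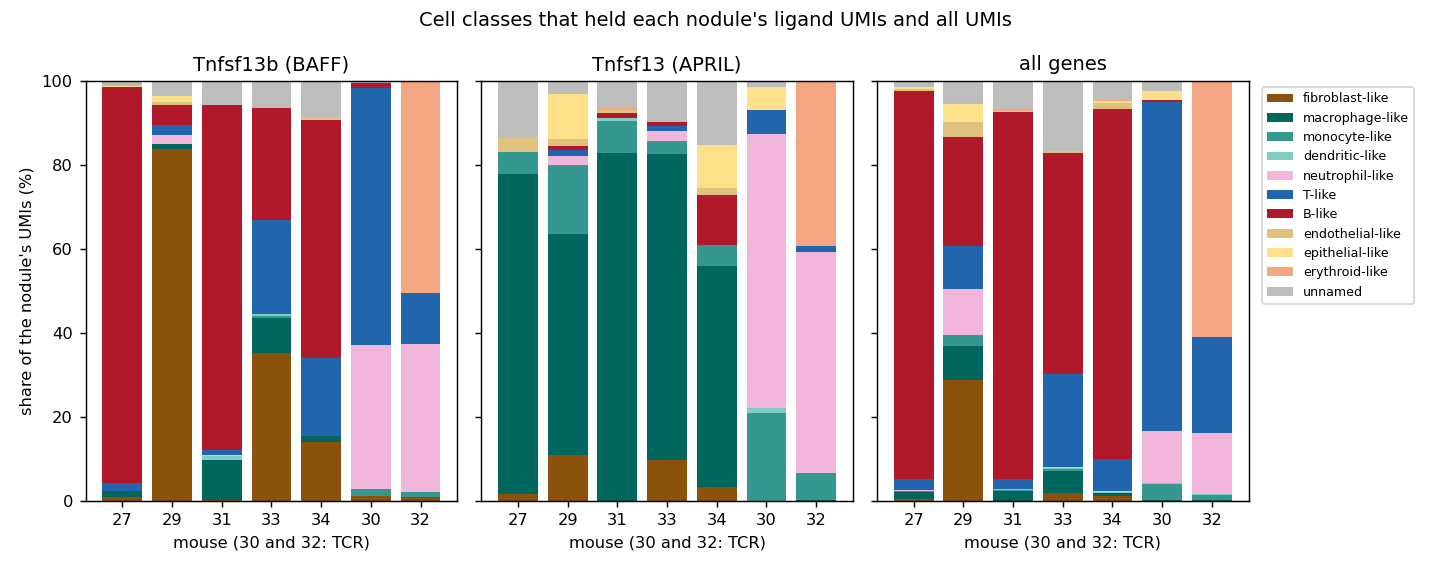
Percent of each member's UMIs that each cell class holds in each nodule. Tnfsf13b comes from fibroblast-like cells for 83.7% in mouse 29 and from B-like cells for 94.3% in mouse 27, while myeloid classes hold 57.6% to 91.1% of Tnfsf13 in the 7 nodules.

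Both kinds of nodule were then set side by side. Taken as a whole, the BCR nodules had 172, 19.8, 12.2, 224 and 624 CPM of Tnfrsf13c in mice 27, 29, 31, 33 and 34, and the TCR nodules had 2.03 and 4.68. For Tnfrsf13b the values were 221, 10.7, 283, 117 and 118 CPM, against 3.999 and 15.8, and these overlapped through mouse 29. In such pooled values fewer cells of a type and less RNA per cell cannot be told apart. An exact permutation test over 21 splits of the mice, two-sided, gave p = 0.333 for Tnfrsf13c and 0.143 for Tnfrsf13b, which adjusted over the 5 members were 0.556 and 0.556. With 2 mice against 5 the test can go no lower than 0.0476. Tnfsf13b averaged 6.59 ± 4.12 CPM in TCR nodules (SD, n = 2) and 12.7 ± 11.8 in BCR nodules (SD, n = 5), and Tnfsf13 averaged 7.87 ± 5.84 and 4.43 ± 4.94 (exact permutation p = 0.619 for each). Neither ligand differed beyond the spread between nodules.

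Within 1 class the nodule kinds were not separated either. In T-like cells edgeR called 3 of 12681 genes (0.0237%, with 0.0158% higher and 0.00789% lower), and no member, with log2 differences, TCR minus BCR, of -0.70 (SE 0.53) for Tnfsf13b, 0.14 (SE 1.08) for Tnfrsf13b and -1.72 (SE 0.90) for Tnfrsf13c. In phagocytes it called 0 of 10203 genes (0%), with 1677 at an unadjusted p under 0.05 and 464 by DESeq2. Tnfsf13 averaged 36.0 CPM in phagocytes of TCR nodules and 69.5 in those of BCR nodules, a log2 difference of -1.02 (SE 0.41, edgeR adjusted p = 0.27). Tnfsf13b averaged 3.21 and 13.0 CPM, a difference of -2.25 (SE 1.07, edgeR adjusted p = 0.33). None of the 30 and 29 pathway genes tested in these fits passed.

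Genes whose levels followed a member most closely were named by the Pearson r of log2(CPM + 10) over 46 pools of 1 class in 1 mouse with 50 or more cells, among 16051 genes. Pools of a nodule share a library and its free RNA, so the r values are a description. Shisa8 (0.91), H2-Eb2 (0.91) and Gm37267 (0.88) followed Tnfrsf13c, and Cd22 (0.90), Naa40 (0.88) and H2-Ob (0.88) followed Tnfrsf13b. Loxl3 (0.87), Olfml3 (0.84) and Ror2 (0.83) followed Tnfsf13b, and Dnase1l1 (0.90), Idh1 (0.89) and Tfec (0.88) followed Tnfsf13. Tnfrsf17 had too few UMIs for this.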

How the data were processed

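White nodules of 7 mice gave 7 single-cell RNA and 7 V(D)J libraries. The authors deposited raw UMI counts per gene and cell, unnormalized, and the genome builds named in their processing notes are GRCm38 and mm10. The aligner and annotation were not given in the sources used here, nor was it settled whether the RNA counts come from the 3′ or the 5′ end. The deposited V(D)J contig lists were used for the receptor chains.

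Cells with at least 201 UMIs, 101 genes and at most 10% mitochondrial UMIs were kept. Counts were reduced to 2000 variable genes, the listed genes excluded, and 30 components and clustered with leidenalg 0.10.2 (resolution 1.0, 15 neighbors) without integration. A cluster was named when at least 3 fixed markers had CPM + 10 at least 1.5 times the median cluster's and a UMI in at least 10% of its cells. This rule was adjusted after the clusters were seen. No doublet caller was run, and cells that held 2 or more UMIs each of T cell and B cell genes were removed in an alternative. UMIs were summed per mouse and population (20 or more cells). They were tested with edgeR 4.0.16 (R 4.3.3, filterByExpr, TMM) at an adjusted p under 0.05, with DESeq2 1.42.0 as an alternative. The fits were also run on simulated data, whose outcome is not given here. The mouse was the block because both populations came from 1 nodule. With 1 nodule per mouse, p-values of fits with this block measure how the difference within a nodule varied between mice. The fits of TCR against BCR nodules had no block, and their p-values measure the spread between mice. The members were named whatever their values, and of the pathway lists up to 4 called genes per comparison with the largest change. The members and lists were chosen with earlier results of these data known. One gene of the B cell marker list is not reported here.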

Additional observations from a re-analysis of the deposited data

Results flagged for a closer look

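In 8 of 21 groups of 4 or 5 nodules checked, the highest or lowest nodule lay further from its neighbor than Dixon's 95% limit allows. About 1 in 20 groups would pass that limit if the values were independent and normally distributed. The groups here share nodules and some values are near 0, so that rate cannot be set against the 8. Mouse 29 was the highest for whole-nodule Tnfsf13b (33.2 CPM, next 11.1), whole-nodule Tnfsf13 (13.0, next 4.29), whole-nodule Tnfrsf17 (0.353, next 0.117, from 18 UMIs) and neutrophil-like Tnfsf13 (2.33, the others at 0 in 25 to 41 cells). Mouse 31 was the highest for Tnfrsf13b in T-like cells (53.5 CPM, next 15.8) and for Tnfsf13b in phagocytes (36.9, next 10.7), and the lowest for Tnfsf13b in T-like cells (5.29, next 7.08, from 9 UMIs). Mouse 34 was the highest for Nfkb2 in the clone (835 CPM, next 30.9). The neutrophil-like Tnfsf13 levels of 0 had upper limits of 28.2 to 68.3 CPM, above the 2.33 of mouse 29. The interval of Tnfsf13b in T-like cells of mouse 31, 2.42 to 10.05 CPM, covered the levels of the other BCR nodules (7.08 to 7.71).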

How the results depend on the processing

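The calls of Tnfrsf13c and Tnfrsf13b in B cell clones against T-like cells, of Tnfsf13 in phagocytes and of Tnfsf13b in fibroblast-like cells kept their direction and passed under every alternative run for them. Counts of genes passing, across all genes, moved as follows. For B cell clones against other BCR-called cells, 2 became 164 with DESeq2, 172 with no filter on low counts and 0 with no replicate block (the mouse pairing), for T cell clones 0 became 202, 223 and, with clone cells of any class, 20, and for T-like cells of TCR against BCR nodules 3 became 167, 175, 1 at resolution 2.0 and 0 outside the clone. For phagocytes of both nodule kinds 0 became 464 with DESeq2 and 317 with no filter, for neutrophil-like cells 1404 became 2304 with no filter, and for fibroblast-like cells 3371 became 5198. The cause was not tested, beyond the larger number of genes tested with no filter.

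Leaving out 1 mouse in turn gave 2200 (without mouse 34) to 3017 genes for B cell clones against T-like cells, 6 to 13 against other BCR-called cells, 0 to 28 for T-like cells of both nodule kinds (28 and 22 without mouse 29 and 30, 0 without any other), 873 (without mouse 29) to 1439 for neutrophil-like cells, 0 to 205 for phagocytes of both kinds (205, 6 and 4 without mouse 29, 31 and 32) and 2380 to 3088 for fibroblast-like cells. The T cell clone fit leaves no residual degrees of freedom without a mouse, and the planned reference of B-like cells with Ighd and no BCR call found 0 cells in each nodule, so neither was run. The Tnfsf13 myeloid ratio was 3.32 to 3.96 with an adjusted exact p of 0.0625, since 6 mice cannot go below 0.03125 before adjustment.

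Values of members that did not pass turned direction in these settings. Against other BCR-called cells, Tnfrsf13b was -0.042 with DESeq2 and Tnfrsf13c 0.26 with no replicate block, and without 1 mouse they were -0.48 to 0.70 and -1.28 to 0.44, turning without mouse 31. In T cell clones Tnfrsf13b was -0.71 with DESeq2. In T-like cells of TCR against BCR nodules Tnfrsf13b was -0.15 at resolution 2.0, -0.83 outside the clone and -3.30 to 1.07 without 1 mouse. In phagocytes against T-like cells Tnfrsf13c was 0.34 with no replicate block and 0.80 at resolution 2.0. In neutrophil-like cells Tnfrsf13b was -0.058 with no replicate block, -0.70 at resolution 2.0 and -0.18 to 0.33 without 1 mouse. In phagocytes of both kinds Tnfrsf13b was -0.81 at resolution 2.0 and -0.77 to 0.81 without 1 mouse, and in fibroblast-like cells it was -0.038 to 2.06. The whole-nodule Tnfsf13 difference, 3.45 CPM with all mice, was -0.69 to 7.58, the lowest being without mouse 32. The Tnfsf13b myeloid ratio was -0.16 without neutrophil-like cells (exact p = 0.8125). The replicate block changed no call of a member. Tnfrsf13b in phagocytes passed at resolution 2.0 (1.31) and without mouse 31 (1.31), and in fibroblast-like cells without mouse 29 (2.06), as did Tnfrsf13c there with DESeq2 (2.04), no filter, mixed cells removed or without mouse 33. Tnfsf13 in neutrophil-like cells was -1.91 at resolution 2.0 (edgeR adjusted p = 0.068). The number of mice limits every comparison, and populations of 20 to 41 cells rest on few UMIs. With clone cells of the printed heavy or beta chain alone, chosen after the data were seen, 2961, 2 and 0 genes passed in the 3 clone comparisons, and no call of a member changed.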
